A study of Mus musculus with 14 samples.

Results

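A set of 10 regulators of pluripotency and of the first lineage decisions were followed through the 2-cell stage of the mouse embryo. They were Pou5f1, Sox2, Nanog, Esrrb, Zfp42, Tdgf1, Sall4, Prdm14, Cdx2 and Gata6, taken as the rows of the count table whose gene name equals one of these symbols, which gave 10 of 56923 genes with 1 row each. The study asked what lactate does at zygotic genome activation in ICR mouse embryos. RNA was sequenced from 14 libraries of 5 embryos each, in 7 groups of 2 libraries.

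In 5 groups, embryos were grown in mKSOM medium with 5 µM Gne140, an inhibitor of lactate dehydrogenase A and B, and 50 µM NMN, a precursor of NAD. The G&N groups had 10 mM lactate in this medium and the G&N-L groups had none. Both were collected as early 2-cell embryos at 30 h and as late 2-cell embryos at 54 h after hCG injection. The paper describes deprivation from the late zygote stage on for both collections. Late G&N-L embryos were thus without lactate for longer than early ones, and stage and length of deprivation cannot be told apart. A further late group, G&N-L + Lac-CoA, came from zygotes injected with 1 mM lactyl-CoA, the donor of the lactyl mark, and then deprived of lactate. The last pair of late groups came from zygotes injected with 200 ng/µL of mRNA for histone H3 variants, either wild type (WT) or with lysine 18 replaced by arginine (H3K18R); these embryos still held their own histone genes. Groups were read from the library titles, which other labels do not always match: the count columns of the H3K18R libraries are headed K18A, and the treatment label of the early libraries titled G&N-L names Gne140 and NMN while that of the early libraries titled G&N names Gne140 alone.

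Oct4 (the product of Pou5f1), Sox2 and Nanog bind many enhancers together and form the core of the network that keeps the inner cell mass and embryonic stem cells pluripotent. Esrrb, Zfp42 (Rex1), Prdm14, Sall4 and Tdgf1 (Cripto, a co-receptor of Nodal) extend that network. Cdx2 directs the trophectoderm and Gata6 the primitive endoderm, the lineages that leave the pluripotent cells before implantation. At the 2-cell stage maternal RNA is being cleared while the embryonic genome is switched on, so RNA of these genes can come from the oocyte or from new transcription, and counts of total RNA cannot tell the sources apart.

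The libraries held 20350427 to 61275465 counts. A gene was called detected in a library with at least 10 counts and in a group when both libraries passed. Levels are given in CPM, the count relative to the TMM-scaled library total, with the mean ± SD over n = 2 libraries. A library with 3 counts or fewer was taken to be at the floor, and intervals and floors cover counting error only, since the reads carry no molecular identifiers. A comparison of 2 libraries against 2 cannot give an exact permutation p below 0.333 (two-sided), so tests rest on edgeR's quasi-likelihood fit over all genes that passed its filter, with Benjamini-Hochberg adjustment. Nothing in the labels says that the libraries of a group came from separate collections, and p-values then measure only the spread between these libraries. In bulk libraries, fewer cells with a transcript and less transcript per cell cannot be told apart. Embryonic identity was checked on marker lists. The summed level of 9 genes of the 2-cell stage (Zscan4, Zfp352, Tdpoz and others) was 96.8 to 196 CPM in the early libraries and 1147 to 4599 CPM in the late ones, while 10 oocyte genes summed to 8188 to 12102 CPM early and 2385 to 7660 CPM late. Of 15 cumulus cell genes, 7 to 11 were at 0 counts in any one library, and Inhba was at 0 in all 14. Others were present: Cyp19a1 had a mean of 18.1 CPM in both early groups, and Amhr2 had 13.1 and 14.6 CPM in late H3K18R and WT. Tnfaip6 had means of 3.98 to 14.3 CPM in the late groups, and Fshr had up to 396 counts. The list summed to 18.2 to 32.9 CPM early and 9.59 to 39.0 CPM late. The part of these shifts in the results below was not tested.

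Of the 10 genes, 4 were detected in every group. Pou5f1, Esrrb, Zfp42 and Sall4 had at least 10 counts in all 14 libraries. Sox2 was detected in 5 groups, which were all of the late groups. Prdm14 was also detected in 5 groups and missed early G&N and late G&N-L. Gata6 was detected in 5 groups and missed the 2 histone groups. Nanog was detected in 2 groups, late G&N-L and late WT. Tdgf1 was detected in late G&N alone, and Cdx2 in no group. By group, 5 members were detected in early G&N, 6 in early G&N-L, 8 in late G&N, 7 in late G&N-L, 7 in late G&N-L + Lac-CoA, 6 in late H3K18R and 7 in late WT. Of all 56923 genes, 18567 and 15957 had at least 10 counts in the early G&N libraries, and 16829 and 14820 in early G&N-L. In the same order of late groups these were 18656 and 19053, 18825 and 18845, 18687 and 18653, 16616 and 17819, and 16737 and 17511. The 4 libraries of the histone experiment held 20350427 to 32012136 counts, and the part of depth in these calls was not tested.

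**Figure D1:**
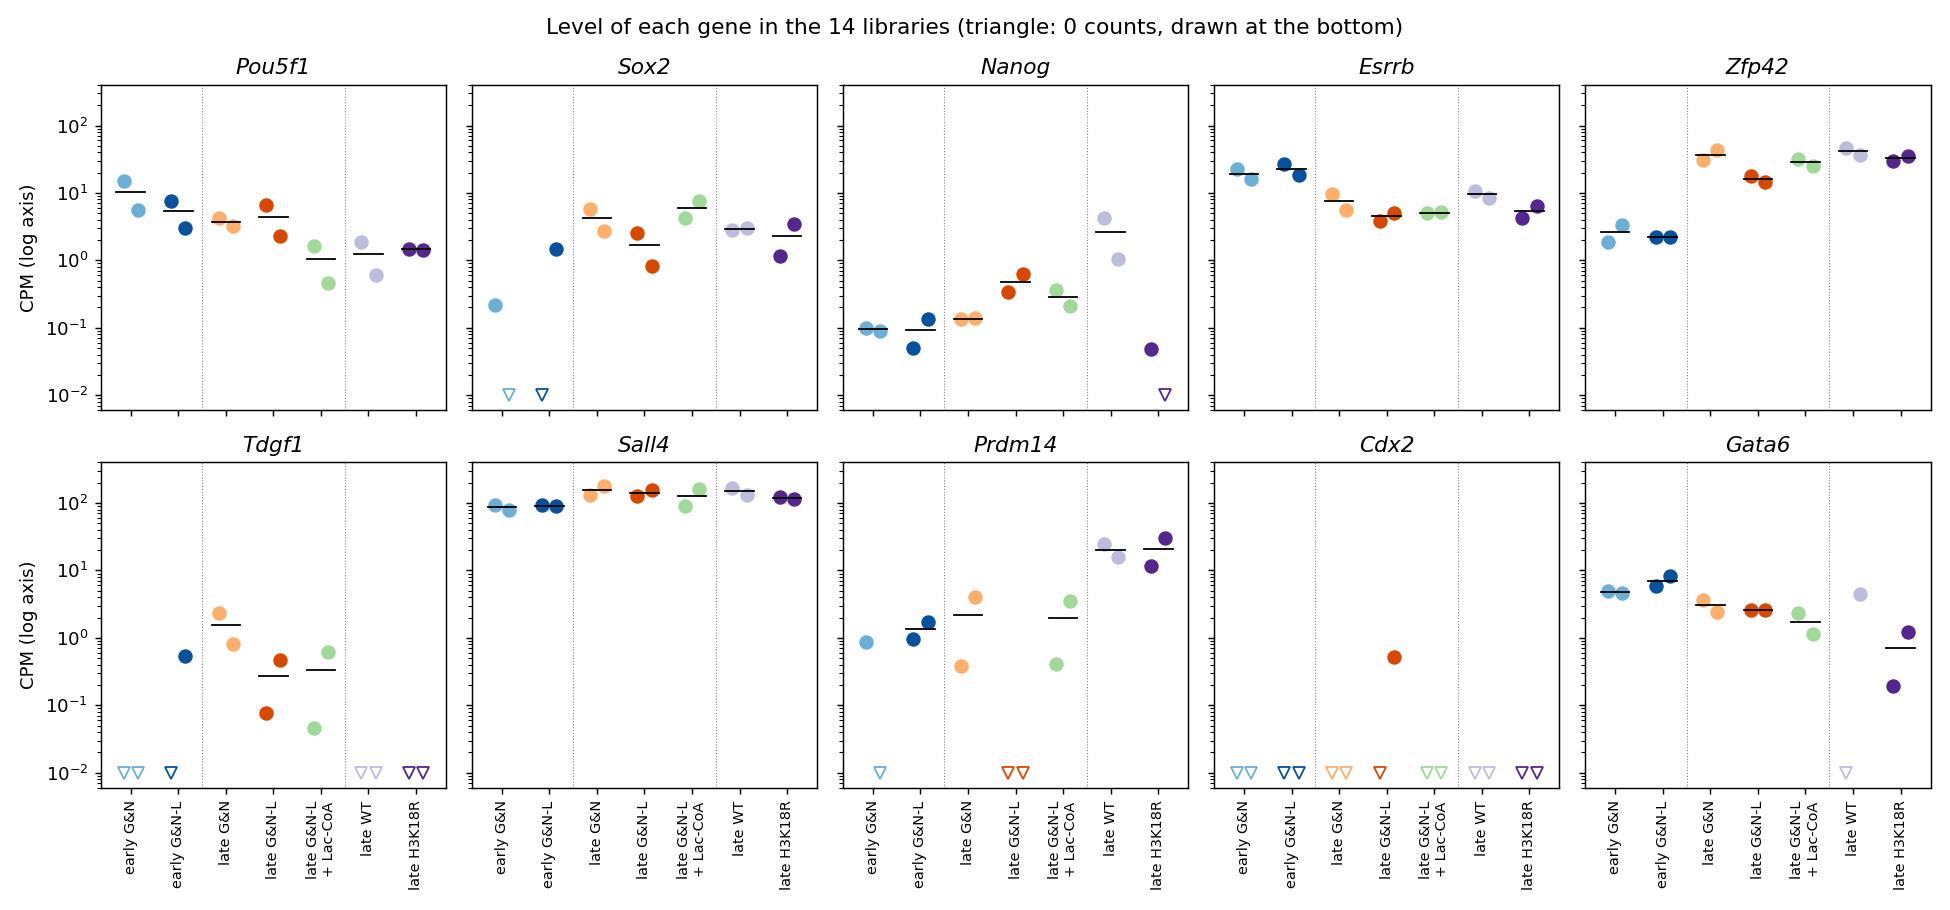
Level of each gene in CPM (log axis) in the 14 libraries, 1 point per library, with the group mean as a bar where no library was at 0; open triangles at the bottom mark libraries with 0 counts, and dotted lines separate early, late and histone mRNA libraries. Zfp42 lies between 1.86 and 3.34 CPM early and between 14.7 and 46.3 CPM late, and Cdx2 has counts in 1 library.

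Zfp42 rose from the early to the late 2-cell stage in both media. It codes for Rex1, a zinc finger protein used as a marker of naive pluripotent cells, and lies at chr8:43743871-43760152 on the minus strand (GRCm39). With lactate, Zfp42 had 95 and 147 counts in the early libraries and 1118 and 1860 in the late ones, or 2.60 ± 1.05 against 36.6 ± 8.56 CPM. The late libraries lay far above the early ones, and the log2 fold change of 3.71 ± 0.57 (SE) had an adjusted p of 0.0190 (edgeR). Without lactate, the early libraries had 89 and 49 counts and the late libraries 679 and 562, a log2 fold change of 2.80 ± 0.49 with an adjusted p of 0.0294 (edgeR). In neither medium did the stages overlap. The call with lactate was lost when late G&N replicate 1 (adjusted p 0.0715) or replicate 2 (0.0883) was left out, and the call without lactate was lost without any one of its 4 libraries (0.0870 to 0.132), with log2 fold changes of 2.66 to 4.34 throughout.

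Esrrb moved the other way. This orphan nuclear receptor (chr12:86407887-86568409, plus strand, GRCm39) sustains self-renewal of embryonic stem cells. It had 1140 and 708 counts in early G&N, 1058 and 411 in early G&N-L, 354 and 241 in late G&N, and 148 and 196 in late G&N-L. All 4 early libraries (16.1 to 26.7 CPM) lay above all 10 late libraries of the series (3.85 to 10.7 CPM). Without lactate Esrrb fell by 2.39 on the log2 scale (SE 0.43, adjusted p 0.0301, edgeR). With lactate the log2 difference was −1.39 ± 0.51 (SE) and did not pass (adjusted p 0.122, edgeR). The call without lactate was lost when any one of its 4 libraries was left out (adjusted p 0.0684 to 0.118). Whether the stage difference itself depended on lactate was tested as an interaction, which gave −1.04 ± 0.65 for Esrrb and −0.96 ± 0.70 for Zfp42, with adjusted p of 0.737 and 0.789 (edgeR).

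The background to these calls was broad. Between stages, 2654 of 19443 genes tested passed with lactate (13.7%), 1591 higher and 1063 lower in late embryos, against 1 of the 8 members tested. Without lactate 2203 of 18604 genes passed (11.8%), 1111 higher and 1092 lower, against 2 of the 9 members tested. On library totals without TMM the splits were 2005 higher and 618 lower, and 1819 higher and 685 lower. By a looser criterion (a log2 fold change past 0.5 in size and an unadjusted p below 0.05), 34.4% and 32.2% of genes passed, and 5 and 4 members did.

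Promoter sequences of Zfp42 and Esrrb, the members that passed the stage test, and of Sox2, which was seen in both libraries of late groups alone, are shown from the RefSeq promoter table (GRCm38.p6, 250 bases before to 50 after the start, 5′ to 3′ on the gene's strand). Each window was found once in GRCm39 by exact match and is placed there. Capitals mark matches, on either strand, to 6 motifs. These were GGGCGG, called the GC box below, the box CCAAT of the factor NF-Y, the core promoter element TATAAA, the Esrrb site AAGGTCA, the Otx2-type homeodomain site GGATTA and the octamer of Oct4, ATGCAAAT. Zfp42 is at chr8:43759997-43760296 (minus strand), Esrrb at chr12:86407641-86407940 for the upstream start and at chr12:86468168-86468467 for the downstream start (both plus strand), and Sox2 at chr3:34703894-34704193 (plus strand). The Sox2 window ends before the Sox2 gene model used here begins (34704554), so its start lies upstream of that model.
Zfp42: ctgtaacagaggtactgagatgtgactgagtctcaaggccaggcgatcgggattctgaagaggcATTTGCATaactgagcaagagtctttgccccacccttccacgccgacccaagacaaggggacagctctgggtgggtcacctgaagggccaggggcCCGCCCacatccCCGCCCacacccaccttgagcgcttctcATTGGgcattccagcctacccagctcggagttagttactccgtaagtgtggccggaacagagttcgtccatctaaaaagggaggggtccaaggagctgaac
Esrrb upstream: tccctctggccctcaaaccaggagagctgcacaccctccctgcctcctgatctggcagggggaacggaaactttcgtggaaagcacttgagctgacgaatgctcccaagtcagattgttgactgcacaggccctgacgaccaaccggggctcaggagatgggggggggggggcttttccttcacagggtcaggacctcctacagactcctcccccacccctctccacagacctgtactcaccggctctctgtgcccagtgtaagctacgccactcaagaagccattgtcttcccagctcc
Esrrb downstream: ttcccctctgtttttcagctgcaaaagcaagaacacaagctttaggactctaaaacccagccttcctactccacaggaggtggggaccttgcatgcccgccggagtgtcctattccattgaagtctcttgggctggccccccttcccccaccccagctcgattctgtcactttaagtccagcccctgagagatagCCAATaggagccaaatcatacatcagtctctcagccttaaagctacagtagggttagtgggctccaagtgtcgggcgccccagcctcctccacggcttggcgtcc
Sox2: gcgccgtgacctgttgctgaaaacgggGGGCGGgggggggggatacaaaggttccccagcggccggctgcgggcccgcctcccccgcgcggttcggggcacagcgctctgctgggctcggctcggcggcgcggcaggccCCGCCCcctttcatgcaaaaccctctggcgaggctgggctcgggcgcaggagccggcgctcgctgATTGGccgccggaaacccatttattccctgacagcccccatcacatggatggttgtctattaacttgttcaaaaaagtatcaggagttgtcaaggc

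The Zfp42 window held 1 octamer, starting at position −186 from the start, 2 GC boxes and 1 CCAAT box. The Sox2 window held 2 GC boxes and 1 CCAAT box, the downstream Esrrb window 1 CCAAT box, and the upstream Esrrb window no match. No match overlapped another in these windows. Over all 32851 windows of this length, 1.74% held the octamer, 35.7% a GC box, 37.4% a CCAAT box, 13.6% a TATAAA, 4.72% the Esrrb site and 7.06% the homeodomain site. Among the members with a window, 7 of 10, the octamer was also present in the Cdx2 window, and Cdx2 was at 0 counts in 13 of 14 libraries. GGATTA was found in the Nanog windows and in the downstream Pou5f1 window. Prdm14, Sall4 and Gata6 had no window in the table. A match of letters is a description and says nothing on binding.

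Neither of the core factors Sox2 and Pou5f1 passed the stage test in either medium. Sox2 (chr3:34704554-34706610, plus strand, GRCm39) had 11 and 0 counts in early G&N and 210 and 119 in late G&N, a log2 difference of 5.26 ± 1.88 (SE) with an adjusted p of 0.112 (edgeR). That p was 0.00595 with DESeq2, 0.0170 without a filter on low counts, and 0.0377 without early G&N replicate 1, which leaves 1 early library at 0 counts and takes the spread from the late libraries. Without lactate, the early libraries had 0 and 32 counts and the late ones 99 and 32, so that the stages overlapped (log2 difference 1.14 ± 2.23, adjusted p 0.804, edgeR). Outside these, the late libraries held 24 to 329 counts of Sox2.

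Pou5f1 (chr17:35816789-35822274, plus strand, GRCm39) was present throughout and had its highest levels early. It had 778 and 246 counts in early G&N against 155 and 142 in late G&N (log2 difference −1.50 ± 0.70, adjusted p 0.202, edgeR), and 305 and 67 in early G&N-L against 255 and 88 in late G&N-L (−0.30 ± 0.86, adjusted p 0.872, edgeR). The stages were apart with lactate and overlapped without it. Replicates differed widely, as in early G&N (15.3 and 5.60 CPM) and in late G&N-L + Lac-CoA (1.66 and 0.461 CPM).

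Nanog was low in most groups. It lies at chr6:122679780-122691601 (plus strand, GRCm39) and had 2 and 3 counts in early G&N-L, 5 and 4 in early G&N, 5 and 6 in late G&N, 13 and 24 in late G&N-L, and 16 and 9 in late G&N-L + Lac-CoA. The highest values were in late WT, with 97 and 34 counts, or 4.22 and 1.05 CPM. Late against early without lactate, 37 counts stood against 5, a ratio of 5.95 (95% exact conditional interval 2.33 to 19.4, counting error only), and the edgeR test gave an adjusted p of 0.339. With lactate Nanog did not pass the filter between stages.

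Sall4 was by far the most abundant member. This zinc finger protein binds Oct4 and Nanog and is present as maternal RNA in oocytes. It lies at chr2:168590252-168609863 (minus strand, GRCm39) and ranged from 2005 to 7789 counts. Early libraries held 79.2 to 93.4 CPM, and late ones 90.9 to 179 CPM. The late levels were higher by 0.77 ± 0.27 with lactate and by 0.56 ± 0.19 without it on the log2 scale, with adjusted p of 0.111 and 0.107 (edgeR), so neither passed. The corresponding p were 0.0184 and 0.0166 with DESeq2, 0.0494 and 0.0396 on library totals, and 0.0443 and 0.0470 among genes with at least 10 counts in every library.

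The remaining 4 genes were low or patchy. Gata6 (chr18:11051565-11086995, plus strand, GRCm39) had 181 to 253 counts in the 4 early libraries and 98 to 133 in late G&N and late G&N-L, with log2 differences of −0.72 ± 0.75 and −1.51 ± 0.64 and adjusted p of 0.571 and 0.186 (edgeR). Both late groups lay below their early groups. Tdgf1 (chr9:110768655-110775292, minus strand, GRCm39, named Cripto in the annotation used here) was at 0 in both early G&N libraries and at 85 and 35 counts in late G&N, at least 24.6-fold higher against a floor of 3 counts per library (adjusted p 0.0610, edgeR). From late G&N replicate 2, the lower library, the bound is 12.6-fold. In late G&N-L it had 3 and 18 counts, and in early G&N-L 0 and 12. Cdx2 (chr5:147237615-147244091, minus strand, GRCm39) had 20 counts in late G&N-L replicate 2 and 0 in the other 13 libraries. With 0 counts, a library allows a level of up to 0.0589 to 0.144 CPM, depending on its scaled total.

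Prdm14 was patchy in the inhibitor experiment and present in all 4 libraries of the histone experiment. This PR domain protein (chr1:13183405-13198351, minus strand, GRCm39) keeps embryonic stem cells naive and acts in the germ line. It had 38 and 38 counts in early G&N-L and 0 and 0 in late G&N-L, at least 17.1-fold lower late (adjusted p 0.0691, edgeR). From early G&N-L replicate 1, the lower library in CPM, the bound is 12.3-fold. Prdm14 had 45 and 0 counts in early G&N and 14 and 173 in late G&N, and 18 and 153 in late G&N-L + Lac-CoA, so that the replicates lay far apart. In the histone experiment it had 245 and 690 counts (H3K18R) and 574 and 514 (WT), or 11.7 to 30.2 CPM, against 0 to 3.97 CPM in the 10 libraries grown with Gne140. These experiments differed in medium and injection, and that difference was not tested.

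**Figure D2:**
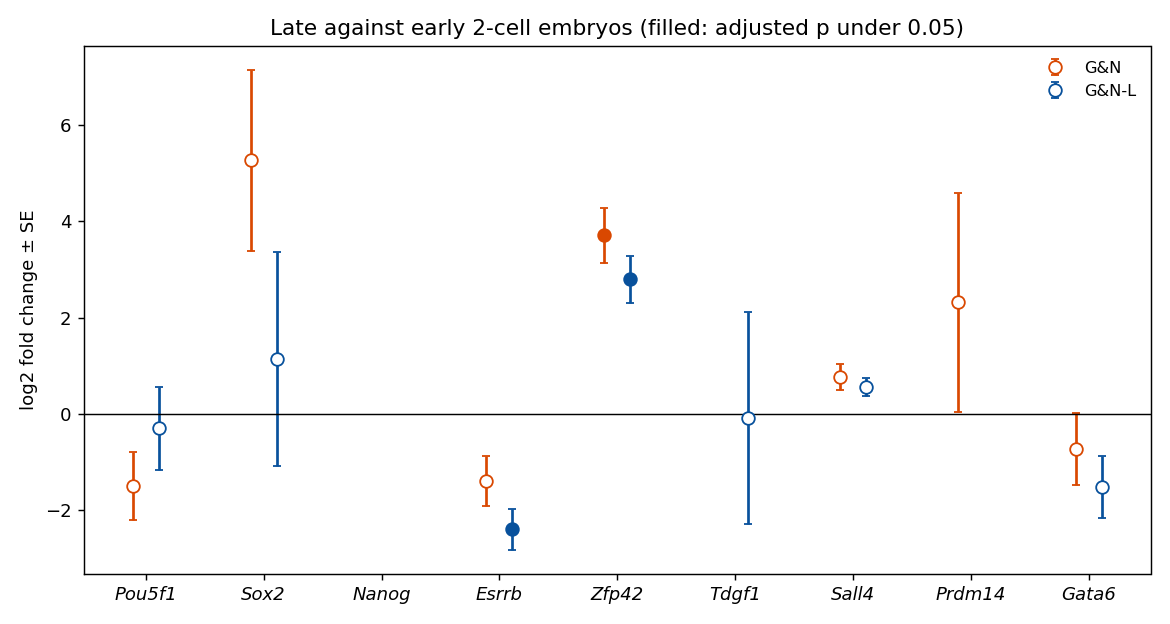
Log2 fold change of late against early 2-cell embryos (y axis, ± SE from edgeR) for each gene, with lactate (G&N) and without (G&N-L); filled points have an adjusted p under 0.05, and a gene is left out where it was not tested or a group was at the floor. Zfp42 is above 0 in both media (3.71 and 2.80) and Esrrb is below 0 in both (−1.39 and −2.39).

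At the late stage, setting G&N-L beside G&N asks what lactate does to these genes when the embryo cannot make or burn it through lactate dehydrogenase. No member passed the adjusted test among 9 tested, nor did any of 19481 genes (0%, edgeR, 2332 genes at an unadjusted p under 0.05, and 916 passing with DESeq2). By the looser criterion 2 members were lower without lactate, Zfp42 and Prdm14, where 11.9% of all genes met it. Zfp42 had 679 and 562 counts in G&N-L and 1118 and 1860 in G&N, 16.2 ± 2.12 against 36.6 ± 8.56 CPM, without overlap (log2 difference −1.13 ± 0.35, unadjusted p 0.0197 and adjusted p 0.333 by edgeR). Its adjusted p was 0.128 to 0.735 over the alternatives and the difference stayed between −1.31 and −0.83. Prdm14 was at 0 in both G&N-L libraries against 14 and 173 counts in G&N, at least 27.9-fold lower (adjusted p 0.333, edgeR). That bound rests on G&N replicate 2, and against replicate 1 alone it is 4.90-fold.

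The other members showed no passing difference with lactate at the late stage. Sox2 (99 and 32 counts against 210 and 119), Esrrb (148 and 196 against 354 and 241) and Tdgf1 (3 and 18 against 85 and 35) were lower without lactate in each library, with log2 differences of −1.27 ± 1.01, −0.73 ± 0.63 and −2.48 ± 1.65 and adjusted p of 0.775, 0.806 and 0.701 (edgeR). Nanog was higher without lactate, at 13 and 24 counts against 5 and 6 (1.83 ± 1.61, adjusted p 0.809, edgeR). Pou5f1, Sall4 and Gata6 overlapped between the media, at 0.30 ± 0.83, −0.08 ± 0.24 and −0.19 ± 0.84, and Cdx2 did not pass the filter.

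At the early stage, no member passed among 6 tested, and none of 17343 genes did (0%, edgeR, 784 genes at an unadjusted p under 0.05, 37 passing with DESeq2). None of the members met the looser criterion, which 4.5% of genes met. Their log2 differences lay between −0.82 ± 0.67 for Pou5f1 and 1.83 ± 2.15 for Prdm14, with an adjusted p of 0.9999 for each. Esrrb, Zfp42 and Sall4 overlapped between the media, at 0.36 ± 0.33, −0.13 ± 0.83 and 0.21 ± 0.20, and Sox2, Nanog, Tdgf1 and Cdx2 did not pass the filter. Gata6 was higher without lactate in both libraries, at 5.87 and 8.20 CPM against 4.96 and 4.62 CPM (0.69 ± 0.52). Testing the lactate difference between the stages, no gene of 22287 passed (0%, 1683 at an unadjusted p under 0.05, 224 passing with DESeq2). Tdgf1 and Prdm14 were the members with an unadjusted p under 0.05 (0.0498 and 0.0240, adjusted 0.650 for both, edgeR), where 7.55% of genes met the looser criterion, and both had a group at the floor.

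Injection of lactyl-CoA into zygotes deprived of lactate asks whether the donor of the mark stands in for lactate. This comparison and the preceding one share the late G&N-L libraries, so their values are set side by side without a test of likeness. No injection of the G&N-L or G&N embryos is described in the sources used here, so lactyl-CoA and injection cannot be told apart. Against G&N-L, no member passed among 9 tested, nor did any of 19610 genes (0%, edgeR, 2609 at an unadjusted p under 0.05, 1183 passing with DESeq2), and 1 member met the looser criterion, where 13.2% of genes did. That member was Prdm14, with 18 and 153 counts against 0 and 0, at least 25.2-fold higher (adjusted p 0.305, edgeR), or 5.30-fold from Lac-CoA replicate 1 alone.

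Zfp42 was at 1383 and 1075 counts with lactyl-CoA, 28.3 ± 4.97 CPM, above both G&N-L libraries (16.2 ± 2.12 CPM) and overlapping late G&N (36.6 ± 8.56 CPM). Its log2 difference was 0.76 ± 0.36 against G&N-L (adjusted p 0.460) and −0.28 ± 0.34 against G&N (adjusted p 0.992, edgeR). Sox2 was at 184 and 329 counts, 5.91 ± 2.37 CPM, above both G&N-L libraries (1.73 ± 0.94 log2, adjusted p 0.539) and not separate from G&N (0.55 ± 0.76). Pou5f1 was at 72 and 20 counts, below both G&N-L (−2.12 ± 1.16, adjusted p 0.545) and G&N (−1.73 ± 1.12, adjusted p 0.850, edgeR). Esrrb, Sall4, Tdgf1 and Nanog overlapped G&N-L, with differences from −0.78 to 0.23. Gata6, at 100 and 49 counts, was below both G&N-L (−0.64 ± 1.01, adjusted p 0.901) and G&N (−0.74 ± 1.02, adjusted p 0.9999, edgeR). Esrrb and Tdgf1 were also below both G&N libraries, by log2 differences of −0.49 ± 0.63 and −2.15 ± 1.80 (adjusted p 0.994 and 0.936, edgeR), while Sall4 and Prdm14 overlapped G&N, at −0.18 ± 0.35 and −0.02 ± 1.59. Cdx2 did not pass the filter in either comparison, nor did Nanog against G&N. Against G&N none of the 8 members tested passed either criterion, nor did any of 19613 genes pass the adjusted test (0%, edgeR, 1670 at an unadjusted p under 0.05, 471 passing with DESeq2), with 8.51% of genes meeting the looser criterion.

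**Figure D3:**
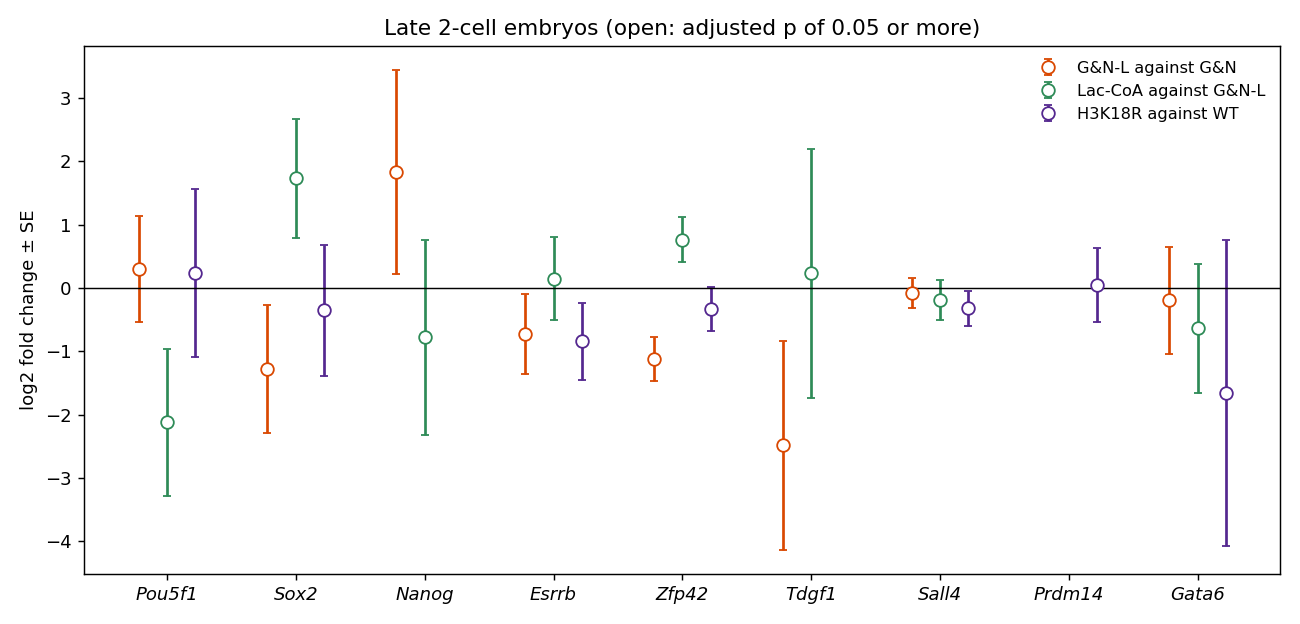
Log2 fold change (y axis, ± SE from edgeR) of each gene in late 2-cell embryos, for G&N-L against G&N, G&N-L + Lac-CoA against G&N-L, and H3K18R against WT; all points are open because none had an adjusted p under 0.05, and a gene is left out where a group was at the floor. Zfp42 sits at −1.13 without lactate, 0.76 with lactyl-CoA and −0.34 with H3K18R.

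H3K18R against WT asks what follows when part of the embryo's H3 cannot be modified at lysine 18. Nanog was at 97 and 34 counts in WT and at 1 and 0 in H3K18R. The ratio of WT to H3K18R was 103 with a 95% exact conditional interval of 18.2 to 4109, which covers counting error only. The WT libraries differed from each other by 97 to 34 counts, and the adjusted p was 0.734 (unadjusted 0.0225, edgeR). None of the 8 members tested passed, against 1 of 17704 genes (0.00565%, and 118 with DESeq2), and Nanog alone met the looser criterion, which 6.44% of genes met.

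Esrrb (88 and 148 counts against 246 and 276), Zfp42 (619 and 812 against 1065 and 1179) and Sall4 (2601 and 2612 against 3855 and 4266) were lower in both H3K18R libraries in CPM. Their log2 differences were −0.84 ± 0.61, −0.34 ± 0.35 and −0.32 ± 0.28, with adjusted p of 0.895, 0.940 and 0.920 (edgeR). Pou5f1, Sox2 and Prdm14 overlapped, at 0.24 ± 1.32, −0.35 ± 1.04 and 0.04 ± 0.58. Gata6 had 4 and 28 counts against 0 and 146, so that its replicates differed more than its groups. Tdgf1 and Cdx2 were at 0 in all 4 libraries. Of the oocyte genes 8 of 10 were higher in H3K18R (median 0.48, none past the looser criterion). They summed to 2712 to 4442 CPM in H3K18R and 2385 to 2455 CPM in WT. Of the 2-cell stage genes 5 of 9 were higher (median 0.20), and the part of both lists was not tested.

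Reads of some members may be shared with copies or with overlapping genes. Zfp42-ps1, a processed pseudogene at chr15:93577041-93577530, aligned to Zfp42 RNA over 266 columns, 54.3% of the length of the copy, with 98.1% identity. It had 0 to 6 counts in the early libraries and 61 to 159 in the late ones, which was 7.88% to 10.9% of the summed counts in each late library. Across the 10 late libraries the 2 levels had a correlation of 0.91, a description over libraries that share preparation and depth. Pou5f1-rs8 (chrX:51967669-51969066) was 78.9% identical to Pou5f1 over 1088 aligned columns. It was at 0 in all 4 early libraries and at 0 to 127 counts late, up to 72.6% of the summed counts in late G&N-L + Lac-CoA replicate 2. Across the 10 late libraries its level had a correlation of 0.34 with that of Pou5f1. Tdgf1-ps1, 98.8% identical to Tdgf1, had 25 and 24 counts in late G&N, the group in which Tdgf1 was detected (85 and 35 counts), 12 in late WT replicate 1, where Tdgf1 was at 0, and 0 in the other 11 libraries. Gene models on the opposite strand overlapped 59.9% of the exon bases of Sox2 (Gm64654), 17.8% of Nanog, 13.0% of Pou5f1, 12.5% of Gata6 (Gata6os) and 11.04% of Sall4. How the counting treated strand and reads with several placements is not given in the sources used here, so these levels carry that uncertainty.

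**Figure D4:**
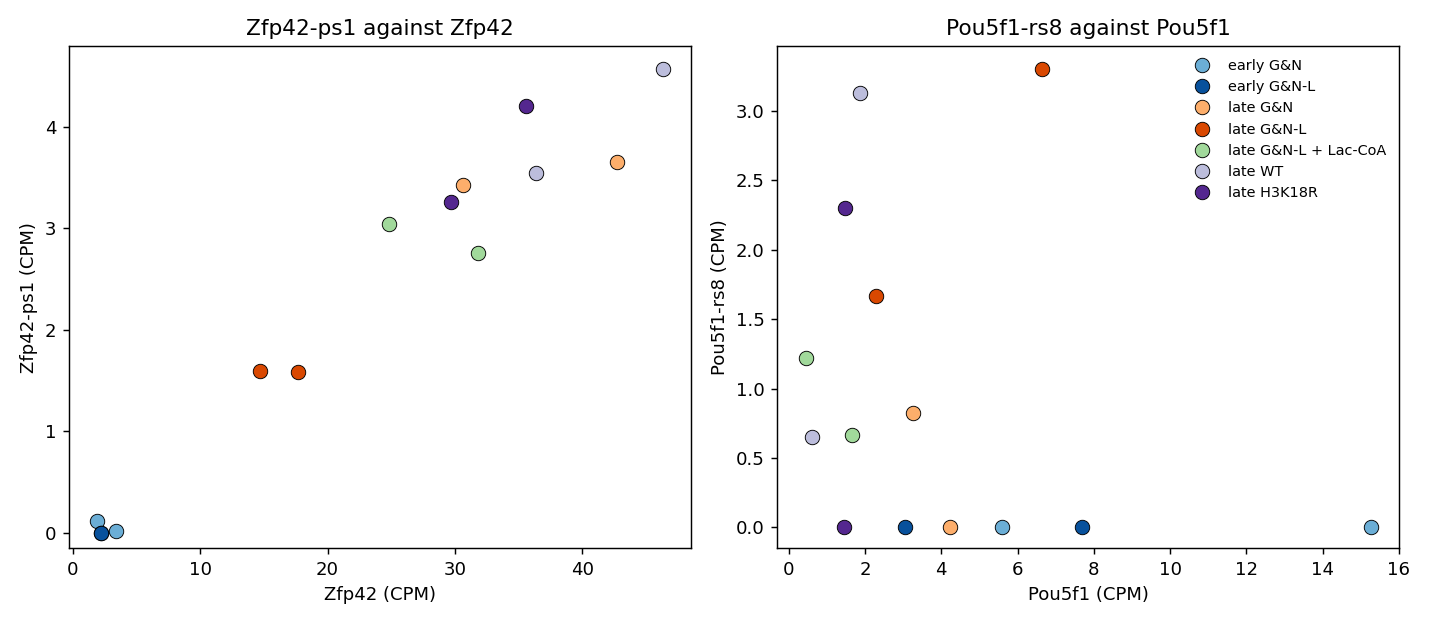
Level of each pseudogene (y axis, CPM) against its parent gene (x axis, CPM), 1 point per library, colored by group. Zfp42-ps1 follows Zfp42, near 0 in the early libraries and up to 4.57 CPM late. Pou5f1-rs8 is at 0 in all early libraries, among them the library with the highest Pou5f1 level (early G&N replicate 1, 15.3 CPM).

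Compared between genes per kilobase of exon, Sall4 led in every group shown here. In early G&N it stood at 15.3 ± 1.79 CPM per kb, above Pou5f1 (3.38 ± 2.21) and Esrrb (3.18 ± 0.73), which overlapped each other. Gata6 (0.52 ± 0.03) and Zfp42 (0.24 ± 0.10) followed. In late G&N the order was Sall4 (27.4 ± 6.15 CPM per kb), Zfp42 (3.37 ± 0.79), then Sox2 (2.06 ± 1.04), Esrrb (1.26 ± 0.48) and Pou5f1 (1.21 ± 0.22), of which neighbors overlapped from Sox2 on. In late WT, Prdm14 (4.03 ± 1.27 CPM per kb) came next to Zfp42 (3.80 ± 0.65) and overlapped it. The order depends on the gene model: the exon union of Zfp42 is 10889 bases in the annotation used here while its canonical transcript has 1907, and on the latter length Zfp42 stood at 19.2 ± 4.49 CPM per kb in late G&N, against 29.9 ± 6.70 for Sall4. On canonical lengths 2 orders given above were reversed. Zfp42 (21.7 ± 3.69 CPM per kb) then stood above Prdm14 (5.37 ± 1.69) in late WT. In early G&N its mean (1.37 ± 0.55) was then above that of Gata6 (1.04 ± 0.05). In late G&N, 6 members had another rank.

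For the 4 genes detected in every group, the genes with the most similar levels over the 14 libraries among 25041 genes were listed by Pearson correlation of log2 CPM, as a description. The libraries fall into early and late sets, so r within the 10 late libraries is given as well. Pou5f1 was closest to Tgfb3 (0.91, late 0.92) and Smap1 (0.90, late 0.86), and Esrrb to Arpc3 (0.95, late 0.79) and Kat14 (0.94, late 0.84). Zfp42 was closest to Folr1 (0.99, late 0.87) and Rpl3l (0.99, late 0.82), and Sall4 to Gm12394 (0.95, late 0.90) and Setd5 (0.92, late 0.81).

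The members were set beside 3 lists of other genes of the same pathways. Of the wider pluripotency network (24 genes), 8 of 21 tested rose from early to late with lactate and none fell, with a median log2 difference of 1.85 beside 0.08 for all genes tested, of which 1591 of 19443 rose and 1063 fell (13.7% in all). Klf5 went from 2 and 5 counts to 1693 and 2282, Fbxo15 from 2636 and 2529 to 10144 and 16544, Klf4 from 76 and 13 to 1271 and 862, and Fgf4 from 0 and 0 to 310 and 679. Without lactate 3 of 20 rose and 2 fell, with a median of 1.37 beside 0.15 and 11.8% of all genes passing. Fbxo15, Zfp281 and Tet1 rose by 1.69 ± 0.21, 1.49 ± 0.26 and 2.80 ± 0.51 on the log2 scale. Dppa3 (Stella, a maternal factor) fell by 1.14 (SE 0.15), as Klf17 did.

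Late without lactate against with it, none of 22 genes of this list passed, 9 met the looser criterion lower and 2 higher, and the median was −0.75 beside −0.02 for all genes, of which 11.9% met that criterion. Of the oocyte genes 8 of 10 were higher in this comparison (median 0.40, 1 past the looser criterion) and of the 2-cell stage genes 5 of 9 (median 0.18), and their part was not tested. Nr5a2 (an activator of early embryonic genes), Klf4 and Fbxo15 had log2 differences of −1.26 ± 0.29, −1.77 ± 0.47 and −0.78 ± 0.23, each with an adjusted p of 0.316 to 0.332 (edgeR). With lactyl-CoA against G&N-L, 7 of 21 met the looser criterion higher and 1 lower, none passed, and the median was 0.96 beside −0.01, where 13.2% of all genes met the looser criterion. In this comparison all 9 genes of the 2-cell stage were higher (median 0.85, 4 past the looser criterion) and all 10 oocyte genes lower (median −0.77, 4 past it), and their part in the result was not tested. Fbxo15, Klf4 and Trim28 were at 0.98 ± 0.18, 2.03 ± 0.45 and 0.96 ± 0.26. The differences without lactate and with lactyl-CoA share the late G&N-L libraries, so they are set side by side without a test of likeness. For lactyl-CoA against G&N the median was 0.10, and in H3K18R against WT it was −0.07 with no gene meeting either criterion. At the early stage the lactate difference had a median of −0.01, and 1 of 15 genes (Klf17) met the looser criterion.

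Of the trophectoderm list (16 genes), Gata3 fell between stages with lactate (−3.16 ± 0.39 log2) and without it (−1.93 ± 0.40), and Id2 rose with lactate (1.41 ± 0.29), among 12 and 11 genes tested. Of all genes tested between stages, 13.7% passed with lactate and 11.8% without it. Wwtr1 alone of 14 met the looser criterion late without lactate against with it (−1.18 ± 0.43, adjusted p 0.369, edgeR), where 11.9% of all genes did. Of the primitive endoderm list (14 genes), none of 10 and 11 tested passed between stages in either medium. Late without lactate against with it, none of 8 met either criterion, with a median of 0.03. In H3K18R against WT, the medians of these lists were 0.56 and −0.15 beside 0.03 for all genes tested. Col4a1 (34 and 38 counts against 0 and 0), Lamb1 (1.06 ± 0.43) and Id2 (1.18 ± 0.46) met the looser criterion, which 6.44% of all genes met. Their adjusted p were 0.734, 0.775 and 0.769 (edgeR).

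**Figure D5:**
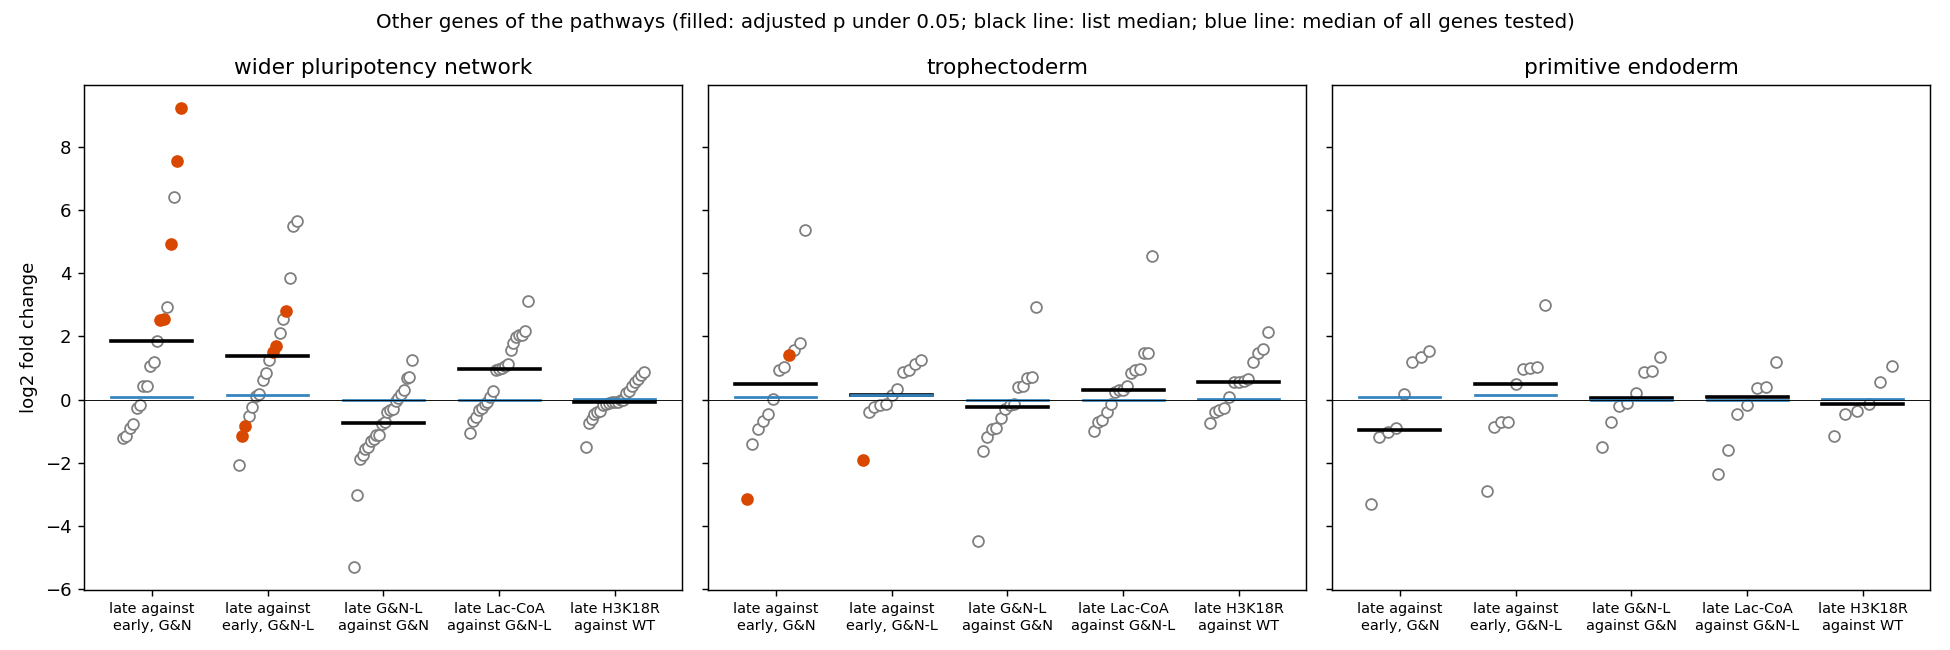
Log2 fold change (y axis) of the other genes of the pathways in 5 comparisons, 1 point per gene tested, leaving out genes with a group at the floor; filled points have an adjusted p under 0.05, the black line is the median of the list and the blue line that of all genes tested. The wider pluripotency list has a median of 1.85 between stages with lactate, −0.75 late without lactate and 0.96 with lactyl-CoA. The medians late without lactate and with lactyl-CoA share the late G&N-L libraries.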

How the data were processed

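Embryo RNA was amplified as cDNA, and libraries were made with a kit for double-stranded DNA. The deposited table holds whole-number counts per gene, made by the authors. The submitters' processing notes name FastQC, Trim Galore, HISAT2, featureCounts and DESeq2 and the build mm39, with no versions. The annotation release, the strand setting and the handling of reads with several placements are not given in the sources used here. Amplification by PCR without molecular identifiers can make counts of low genes uneven between libraries. The authors' methods name more replicates per group than the 2 libraries analysed here.

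Comparisons were fitted with edgeR 4.0.16 in R 4.3.3 on the libraries compared (default filter at a minimum count of 10, TMM, quasi-likelihood test, adjusted p under 0.05). SE is the log2 fold change over the root of its F statistic. Alternatives were DESeq2 1.42.0, its size factors in edgeR, library totals, no filter, a stricter filter of at least 10 counts throughout, a joint fit of all 14 libraries, a replicate block, each library left out, and other detection limits. Positions come from GENCODE vM39 (GRCm39, the build of the files), whose identifiers match apart from versions, and pseudogenes were aligned locally to transcripts. Replicate pairs differed beyond sampling noise. All 10 members were named in every comparison between groups, and of each list the 4 genes at most with the smallest p past the threshold, or past the looser criterion where none passed, except 1 gene that is not reported here. Members, lists and motifs were chosen with earlier results of these data known.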

Additional observations from a re-analysis of the deposited data

How the results depend on the processing

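Genes passing late without lactate against with it numbered 916 with DESeq2, 317 with no filter, 114 with at least 10 counts in every library and 11 with all 14 libraries in one fit, against 0. For early embryos these were 37 with DESeq2, 42 with no filter and 4 with all libraries. Late against early with lactate gave 5959 with DESeq2, 5060 with no filter and 220 to 2446 with a library left out (lowest without late G&N replicate 1 or 2, 220 and 283). Without lactate it gave 5218 with DESeq2, 1391 with the replicate block and 335 to 1393 with a library left out. Lactyl-CoA gave 1183, 3 and 2 against G&N-L and 471, 22 and 20 against G&N (DESeq2, no filter, at least 10 counts in every library). H3K18R against WT gave 118 with DESeq2, 78 with no filter, 9 with all libraries, and 0 to 1 with a library left out (0 without WT replicate 2). The interaction gave 224, 361 and 1 (DESeq2, no filter, all libraries), and 0 to 26 with a library left out. The causes were not tested.

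Equal replicate numbers marked only a number (correlations of deviations −0.051 to 0.0075), and with the replicate block the Zfp42 and Esrrb calls without lactate had adjusted p of 0.0668 and 0.0649. Library totals moved the median of all genes between stages from 0.08 to 0.46 with lactate and from 0.15 to 0.51 without. None of the differences that changed sign had passed. On library totals these were Pou5f1 (0.084) and Tdgf1 (0.24) between stages without lactate and Prdm14 for lactyl-CoA against G&N (0.057). With the block they were Tdgf1 between stages without lactate (1.37) and for lactyl-CoA against G&N-L (−0.17), Prdm14 for lactyl-CoA against G&N (0.059), and Prdm14 (−0.072) and Gata6 (0.52) for H3K18R, and Tdgf1 with all libraries in one fit (0.027). With a library left out, late lactate differences ranged from −0.68 to 0.88 (Pou5f1), −0.26 to 0.20 (Sall4) and −0.40 to 0.17 (Gata6), the early one of Zfp42 from −0.56 to 0.48, and stage differences from −0.17 to 9.45 (Prdm14, with lactate), −1.24 to 0.44 (Pou5f1, without) and −1.82 to 6.41 (Tdgf1, without). Lactyl-CoA differences ranged from −0.043 to 0.36 (Esrrb), −2.52 to 1.99 (Tdgf1) and −0.66 to 0.16 (Sall4) against G&N-L, and −0.68 to 0.18 (Sall4) and −2.29 to 2.40 (Prdm14) against G&N. H3K18R differences ranged from −0.35 to 1.26 (Pou5f1), −1.34 to 0.22 (Sox2), −0.79 to 0.56 (Prdm14) and −3.52 to 6.98 (Gata6), and the Sox2 interaction from −9.09 to 3.92. The number of members detected per group moved by 1.5 times or less with other limits, but by gene the calls depended on the limit: Nanog was detected in 5 groups with more than 3 counts per library and in 1 at 1 CPM (2 as reported), Prdm14 in 2 at 1 CPM (5 as reported), and Tdgf1 in 0 at 1 CPM (1 as reported). With a library left out of a group of 2, the lone library was assumed to vary like the other group.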
